A study of Mus musculus with 12 samples.

Results

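The genes described here encode the proteins of the cytosolic ribosome. They were taken by name from the table of all genes: protein-coding genes whose symbol is Rpl or Rps with a number, or Rplp0, Rplp1, Rplp2 or Rpsa. The rule found 84 genes of 54532, of which 32 belong to the small ribosomal subunit and 52 to the large subunit, and it used no measured value. In all, 82 passed the filter on low counts and were tested among 14286 genes. Rpl3l and Rpl10l did not pass.

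The data are RNA sequencing counts from 12 libraries of bone marrow-derived macrophages (BMDM), grown from the marrow of mice 8 weeks old in medium with 10 ng/ml M-CSF, the growth factor that turns marrow precursors into macrophages. There were 4 groups of 3 libraries each. Hdac3f/f cells, whose Hdac3 gene is floxed and intact, and Lyz2-Cre-Hdac3f/f cells, in which Cre recombinase made from the myeloid Lyz2 locus acts on floxed Hdac3, were kept for 4 h without addition or with 500 ng/ml lipopolysaccharide (LPS), a bacterial wall component sensed by Toll-like receptor 4. Both genotypes carry the floxed alleles. Lyz2-Cre acts in myeloid cells only, and the labels do not say whether the libraries of a group came from separate animals, so p-values measure the spread between these libraries, which may be technical.

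Ribosomal proteins are made in matched amounts, since each ribosome takes a fixed set of them. The mRNAs of nearly all of them begin with a run of pyrimidines, the 5' terminal oligopyrimidine (TOP) tract, through which the kinase mTORC1 and the RNA-binding protein LARP1 set their translation and stability together. Mammalian genomes also hold many processed copies of these genes, made by reverse transcription of their short and abundant mRNAs, and most of these copies are pseudogenes.

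Windows of 30 bases around the annotated start are shown for 5 genes, since the TOP tract is what the family shares by sequence. Each holds 12 bases before the start and 18 from it, on the strand of the gene, from RefSeq on GRCm38.p6, and capitals mark a C at the start followed by at least 4 further pyrimidines.
Rpl15, chr14:18270969-18270998, minus strand: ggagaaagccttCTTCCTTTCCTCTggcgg
Rpl35, chr2:39005114-39005143, minus strand: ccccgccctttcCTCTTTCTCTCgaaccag
Rpl38, chr11:114668568-114668597, plus strand: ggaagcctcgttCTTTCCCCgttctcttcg
Rps6, chr4:86857350-86857379, minus strand: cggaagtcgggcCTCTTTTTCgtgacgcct
Rps18, chr17:33955648-33955677, minus strand: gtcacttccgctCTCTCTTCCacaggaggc
The RefSeq promoter table matched 64 of the 84 genes by symbol. The tract stood exactly at the annotated start in 13 of them (20.3%), against 3.01% of all 27025 symbols in the table. Allowing the tract to begin up to 5 bases from the annotated start, it was found in 29 of the 64 (45.3%), against 21.2% of all symbols. Annotated starts can lie some bases away from the true cap site, so a window without these letters says nothing about the mRNA.

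Stretches of 60 bases of coding sequence are shown for 4 genes with a near-identical copy elsewhere in the genome, because reads of the gene and of the copy are hard to tell apart and several results turn on that. Sequences are from GENCODE M21 transcripts (GRCm38), positions count from the first coding base of the gene, and capitals mark the bases that differ. Rps2 lies at chr17:24718116-24721929, Rpl34 at chr3:130726831-130730398, Rps3a1 at chr3:86137940-86142702 and Rps18 at chr17:33951999-33956001.
Rps2, coding bases 394 to 453: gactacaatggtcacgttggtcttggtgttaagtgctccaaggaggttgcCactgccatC
Rps2-ps10: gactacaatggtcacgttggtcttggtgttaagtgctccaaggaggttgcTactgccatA
Rpl34, coding bases 73 to 132: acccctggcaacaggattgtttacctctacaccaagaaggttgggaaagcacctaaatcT
Rpl34-ps1: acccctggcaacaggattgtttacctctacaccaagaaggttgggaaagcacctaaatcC
Rps3a1, coding bases 609 to 668: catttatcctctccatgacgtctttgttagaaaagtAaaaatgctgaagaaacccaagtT
Rps3a2: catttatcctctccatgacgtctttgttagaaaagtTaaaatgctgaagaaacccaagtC
Rps18, coding bases 1 to 60: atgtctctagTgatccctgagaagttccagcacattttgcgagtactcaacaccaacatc
Gm11361: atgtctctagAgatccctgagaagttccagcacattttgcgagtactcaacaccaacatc
Over the whole coding sequence, Rps2-ps10 differs from Rps2 at 5 of 879 bases, Rpl34-ps1 from Rpl34 at 2 of 351, Rps3a2 from Rps3a1 at 4 of 792, and Gm11361 from Rps18 at 3 of 456. Each copy shown is the one of highest count among the copies of its gene.

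Library totals ran from 16553432 to 18706990 counts, with between 18159 and 21296 genes detected. Hdac3 itself had between 33.1 and 40.7 CPM (counts scaled to the same library size by edgeR) in all 12 libraries, so its total count, which also covers exons outside the deleted part, does not separate the genotypes and checks no label. The macrophage gene Lyz2, whose locus carries Cre, stood at 31.0 CPM in Lyz2-Cre-Hdac3f/f untreated replicate 1 and at 5176 to 7721 CPM in the other 5 Lyz2-Cre-Hdac3f/f libraries, and the counts of ribosomal protein genes in which it enters a comparison are given with and without that library. All 10 macrophage markers were detected. Their summed level was 19440 to 23810 CPM in Hdac3f/f and 11120 to 16600 CPM in Lyz2-Cre-Hdac3f/f without LPS. With LPS it was 26790 to 32200 against 22110 to 24250 CPM, so it was lower in Lyz2-Cre-Hdac3f/f without overlap in each state. The sum includes Lyz2 itself, the locus carrying Cre, which stood at 9310 to 12340 CPM in Hdac3f/f. A sum without Lyz2 was not computed, so this difference cannot be read as one of macrophage content. Of the 10 macrophage markers 1 was called higher and 1 lower untreated, and 3 higher and 5 lower with LPS. A list of 7 stromal and endothelial markers summed to 289 to 1377 CPM in Hdac3f/f without LPS and 789 to 1647 CPM with it, and to 42.7 to 200.2 and 47.9 to 53.2 CPM in Lyz2-Cre-Hdac3f/f. In that list 4 of 7 genes were lower and 1 higher in untreated Lyz2-Cre-Hdac3f/f, and 5 of 7 lower and 0 higher in LPS-treated cells. None was at 0 in every library. Neutrophil markers summed to 218 to 382 CPM in untreated Hdac3f/f and 56.0 to 160.2 CPM in untreated Lyz2-Cre-Hdac3f/f, with 2 of 7 tested lower. Of the lymphocyte markers 2 of 5 tested were higher and 1 lower untreated, and 3 higher and 1 lower with LPS. Their sum untreated was 111.6 to 172.2 CPM in Lyz2-Cre-Hdac3f/f, against 196.8 to 342.2 CPM in Hdac3f/f. With LPS it was 62.9 to 73.3 against 94 to 125.3 CPM. Of the dendritic cell markers 1 of 4 was higher in each state, and of the erythroid markers 0 of 1 untreated and 1 of 1 with LPS. Of the mast cell and basophil markers 5 of 5 were higher untreated, and 4 higher and 1 lower with LPS, with Tpsb2 at 0 in every library. The part of these marker differences in the results was not tested.

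The family as a whole took a smaller part of the RNA in Lyz2-Cre-Hdac3f/f macrophages than in Hdac3f/f macrophages. In untreated Hdac3f/f cells the 84 genes together made up 3.225%, 3.926% and 4.201% of all counts in replicates 1, 2 and 3, or 3.78% ± 0.503 (SD, n = 3). In untreated Lyz2-Cre-Hdac3f/f cells the shares were 2.698%, 2.472% and 2.897%, or 2.69% ± 0.213 (SD, n = 3). Every untreated Lyz2-Cre-Hdac3f/f library was below every untreated Hdac3f/f library. With LPS the shares were 2.454%, 3.025% and 2.692% in Hdac3f/f, or 2.72% ± 0.287 (SD, n = 3). In LPS-treated Lyz2-Cre-Hdac3f/f they were 2.157%, 2.163% and 2.446%, or 2.26% ± 0.165 (SD, n = 3). These groups again did not overlap, with the highest Lyz2-Cre-Hdac3f/f library just under the lowest Hdac3f/f library. A sum over a chosen list gets no test here. In bulk RNA, fewer cells of a type and less RNA per cell cannot be told apart.

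The effect of LPS on the sum depended on the scale. As a share of the library total the sum was lower with LPS in each genotype. On the TMM scale, which sets each library's size so that most genes do not differ, the summed level was 32110 ± 6099 CPM (SD, n = 3) in untreated and 35970 ± 6205 with LPS for Hdac3f/f. For Lyz2-Cre-Hdac3f/f it was 22370 ± 2041 before and 24560 ± 2375 after LPS. The TMM factors of Hdac3f/f libraries were 1.12 to 1.26 without LPS and 0.716 to 0.822 with it. On library totals the median of all 14286 genes shifted by -0.72 (log2) with LPS in Hdac3f/f and by -0.46 in Lyz2-Cre-Hdac3f/f. The genotype difference kept its direction on both scales, and replicate 1 of Hdac3f/f was the lowest of its group in each treatment on both.

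**Figure D1:**
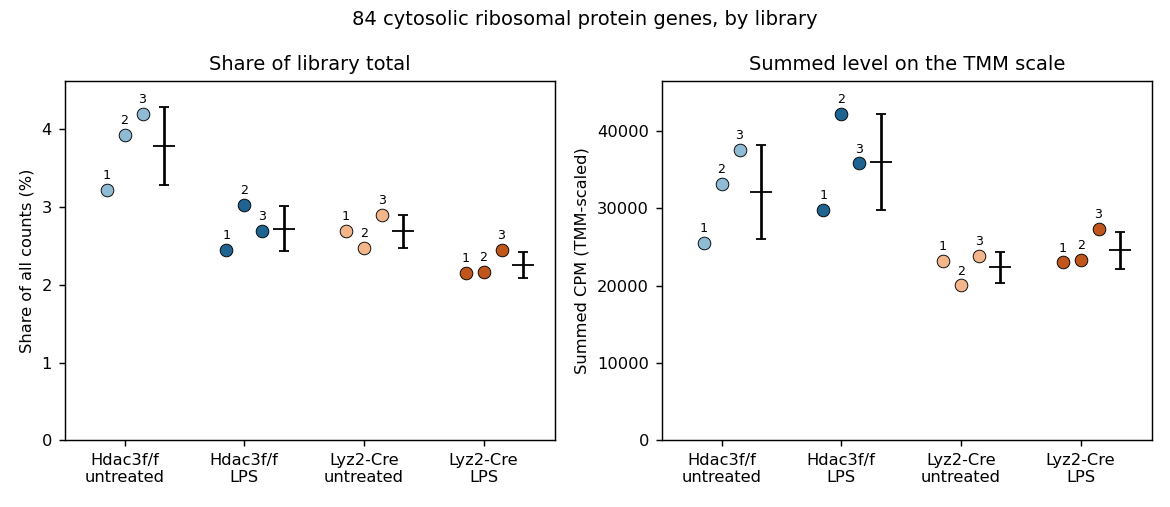
Summed level of the 84 genes in each library, as percent of all counts (left) and as CPM on the TMM scale (right); numbers are replicates, and the dash with bars is the mean ± SD of 3 libraries. Axis labels Lyz2-Cre stand for Lyz2-Cre-Hdac3f/f, whose libraries lie below those of Hdac3f/f in each treatment in both panels; untreated Hdac3f/f replicate 1, at 25535 CPM, comes nearest to them on the right.

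Levels between genes were compared per length, as FPKM from the authors' table. The highest means over the 12 libraries were those of Rplp1 (1551 FPKM), an acidic stalk protein that helps recruit elongation factors, Rplp0 (692 FPKM), which anchors the stalk, Rps14 (623 FPKM) and Rps15 (597 FPKM), both of the small subunit head and platform region, and Rps3a1 (530 FPKM), a small subunit protein. FPKM divides by the length the authors deposited for a gene, which counts all of its exons together, so the ranks carry that choice. At the other end, Rps10 stood at 0.969, Rpl24 at 4.47 and Rpl13a at 5.83 FPKM, far under their partners in the same ribosome. For Rps10 the gene itself held 26 to 59 counts per library and its copies together 1364 to 2548 counts. The gene's part of its own and its copies' counts was thus 1.13% to 3.62%. The tissue-restricted paralogs were near 0: Rpl10l, an autosomal copy of Rpl10 used in the male germ line, had no count in any library, and Rpl3l, the striated muscle paralog of Rpl3, reached at most 0.751 CPM.

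Without LPS, ribosomal protein genes were lower in Lyz2-Cre-Hdac3f/f than in Hdac3f/f macrophages across the family. Of the 82 tested genes 33 were called lower and 0 higher, a called gene being one with an adjusted p under 0.05 over all genes tested by edgeR's quasi-likelihood test. Over all genes 6.66% were called lower and 5.13% higher. The median log2 fold change of the 82 genes was -0.50, against 0.03 for all genes, and 81 of the 82 had a negative value. In 49 genes all 3 Lyz2-Cre-Hdac3f/f libraries lay below all 3 Hdac3f/f libraries, a pattern found in 16.5% of all genes. In 15 of 32 small subunit genes and 18 of 50 large subunit genes the difference was called, with medians of -0.52 and -0.50.

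Rps28 and Rps29, both very small proteins of the small subunit head, showed the plainest differences among called genes. The genes described further on for a varying split with copies are set aside here. Rps28 and Rps29 each have a counted copy of identical coding sequence too, and with copies added their values were -0.97 and -0.99 (adjusted p = 0.00478 and 0.0061 by edgeR). Rps28 was at 129, 181 and 204 CPM in Hdac3f/f and at 84.1, 80.2 and 98.2 CPM in Lyz2-Cre-Hdac3f/f. The groups did not overlap, and the log2 fold change was -0.97 (SE 0.170, adjusted p = 0.00455 by edgeR). Rps29 was at 199.9, 271 and 308 CPM in Hdac3f/f and at 121, 124 and 157 CPM in Lyz2-Cre-Hdac3f/f. It differed by a log2 fold change of -0.95 (SE 0.181, adjusted p = 0.00659 by edgeR), again with no overlap. Rpl39, one of the shortest large subunit proteins and a part of the exit tunnel, was at 176, 229 and 273 CPM in Hdac3f/f and at 125, 115 and 143 CPM in Lyz2-Cre-Hdac3f/f, a log2 fold change of -0.82 with no overlap. The largest value, -3.01 for Rpl39l, the germ line paralog of Rpl39, rests on very few reads. It was at 1.69, 0.195 and 0.920 CPM in Hdac3f/f and at 0.0485, 0.0889 and 0.199 CPM in Lyz2-Cre-Hdac3f/f, and the libraries overlapped.

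With LPS the genotype difference was called in more genes. Of the 82 genes 53 were lower in Lyz2-Cre-Hdac3f/f and 0 higher, where 16.9% of all genes were called lower and 15.7% higher. The median log2 fold change was -0.51, against 0.02 for all genes, and 59 genes had all Lyz2-Cre-Hdac3f/f libraries below all Hdac3f/f libraries, against 22.7% of all genes; 1 gene had the reverse, against 20.5%. Rps29 was at 252, 368 and 359 CPM in Hdac3f/f and at 165, 186 and 203 CPM in Lyz2-Cre-Hdac3f/f, with a log2 fold change of -0.82 (SE 0.181, adjusted p = 0.00539 by edgeR). Of the stalk proteins, Rplp0, Rplp1 and Rplp2 were lower by log2 fold changes of -0.50, -0.62 and -0.50 (adjusted p = 0.0369, 0.0333 and 0.0181 by edgeR). Rpsa, the laminin receptor homolog of the small subunit, had a value of -0.42 that was not called (adjusted p = 0.0927 by edgeR).

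How many genes were called depended on single libraries. In simulated counts each gene had its mean level over the 4 groups and its own spread, and changes were set in untreated Lyz2-Cre-Hdac3f/f. There 7.46% of genes changed by 0.5 (log2) and 56.7% of those changed by 1 were recovered. Over 100 CPM it was 3 of 12 and 8 of 8. Genes were drawn independently, so a joint shift of the family between libraries was not simulated. Without untreated Hdac3f/f replicate 1 the untreated count of lower genes was 59, without replicate 2 it was 9, and without replicate 3 it was 3. Over all genes tested, 1307, 526 and 494 were lower in these fits, against 952 with all libraries. Without untreated Lyz2-Cre-Hdac3f/f replicate 1, the library low in Lyz2, the family's count was 10 and its median -0.53, with 486 lower over all genes. Leaving out the other untreated Lyz2-Cre-Hdac3f/f libraries, replicates 2 and 3, gave 5 and 13, and leaving out LPS-treated Lyz2-Cre-Hdac3f/f replicate 2 gave 20. Over all genes these fits had 545, 461 and 835 lower. With LPS the count of 53 became 9 and 13 without Hdac3f/f replicates 2 and 3, and 10 and 9 without Lyz2-Cre-Hdac3f/f replicates 1 and 2. Over all genes 1718, 1663, 1536 and 1663 were lower in these fits, against 2413 with all libraries. Where the family's count was 3 untreated, or 9 or 10 with LPS, its share was near that of all genes. The family's medians stayed between -0.65 and -0.38 untreated and between -0.64 and -0.40 with LPS over all 12 omissions. On library totals 45 genes of the family were called lower and 0 higher untreated, where 1012 and 627 of all 14286 genes were. With LPS 15 were lower and 3 higher, where 1329 and 4462 of all genes were. The family's median was then -0.23, against 0.29 for all genes.

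**Figure D2:**
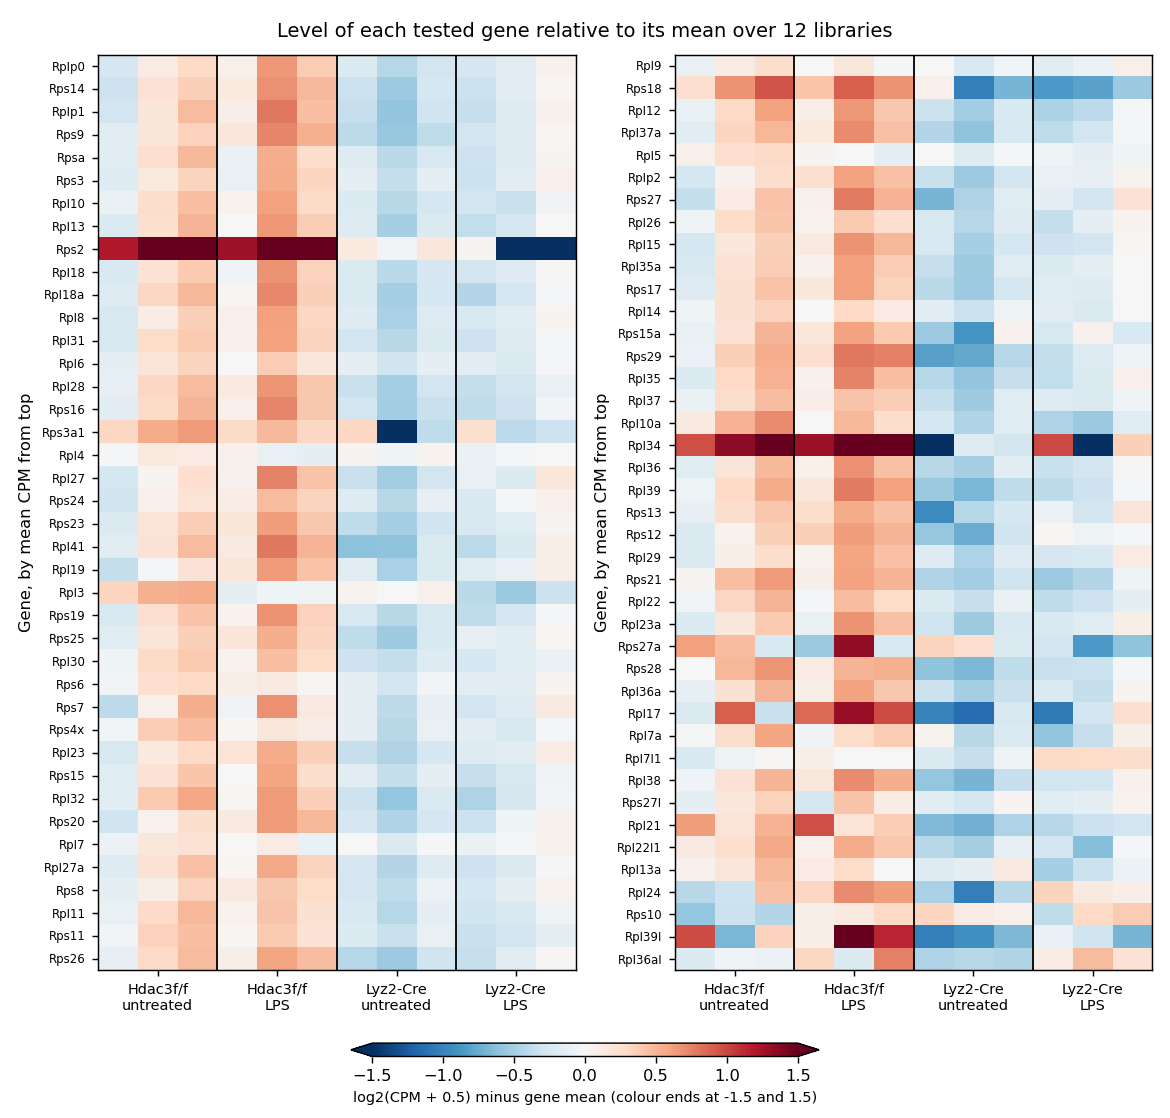
Each row is one of 81 of the 82 tested genes, ordered by mean CPM from the top left, and each column 1 of the 12 libraries, replicates 1 to 3 in each block; colour is log2(CPM + 0.5) minus the gene's mean over the libraries, with Lyz2-Cre standing for Lyz2-Cre-Hdac3f/f. Most rows are red in Hdac3f/f replicates 2 and 3 and blue in Lyz2-Cre-Hdac3f/f, while Rps2, Rpl34, Rps3a1, Rps18 and Rpl17 change between single libraries.

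The authors' deposited table gives its own comparison of the genotypes. Of 83 genes with a value in the authors' deposited table, 61 had an adjusted p under 0.05 and were higher in untreated Hdac3f/f, and none was lower. With LPS the authors' deposited table has 58 of 83 higher in Hdac3f/f and none lower. The share of all genes called by the authors' test was not computed, so these counts stand without a background. Its median log2 ratio of Hdac3f/f over Lyz2-Cre-Hdac3f/f was 0.54 untreated and 0.52 with LPS.

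The change with LPS did not differ detectably between genotypes for any gene of the family. In the interaction, the LPS response of Lyz2-Cre-Hdac3f/f minus that of Hdac3f/f, 0 of 82 genes were called by edgeR, where 8.12% of all genes were. By DESeq2's Wald test the count was 0 as well, and 2 of the 82 had an unadjusted p under 0.05 by edgeR. Over all genes 2.58% were called higher and 5.54% lower, and on the family's own scale, defined further on, 2.15% of all genes and 0 of the 82 were called. The median was 0.00 on the log2 scale, with 41 genes positive and 41 negative, while on library totals it was 0.25 against 0.27 for all genes. There 2 genes of the family were called higher and 0 lower, where 1135 and 449 of all 14286 genes were. The largest interaction by size was that of Rps2, -1.59 (SE 1.26), whose counts are split with its copies.

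Several genes had part of their reads assigned to a copy, and this part differed between libraries of the same group. A search of annotated transcripts against the coding sequences found 957 copies, at least 1 for 78 of the 84 genes. In 7 genes the gene's own part of the counts of gene and copies ranged over 20 percentage points or more between libraries: Rpl17, Rpl21, Rpl34, Rpl36al, Rps2, Rps27 and Rps3a1. Copies took 7.29% to 7.92% of the counts of genes and copies in Hdac3f/f libraries and 8.87% to 11.5% in Lyz2-Cre-Hdac3f/f libraries.

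Rps2, a small subunit protein near the mRNA entry, is the clearest case. In Hdac3f/f the gene itself had 18733, 21465 and 23405 counts untreated, and 12272, 16548 and 14049 with LPS. In Lyz2-Cre-Hdac3f/f it had 8057, 7695 and 7971 counts untreated, and 6004, 237 and 183 with LPS. Its copies together had 6890, 6755 and 6696 counts in untreated and 5341, 10331 and 11318 in LPS-treated Lyz2-Cre-Hdac3f/f, and 1193 to 2219 counts in every Hdac3f/f library. The gene's own part was 91.1% to 91.3% in Hdac3f/f, about 53% to 54% in 4 Lyz2-Cre-Hdac3f/f libraries and 2.24% and 1.59% in LPS-treated Lyz2-Cre-Hdac3f/f replicates 2 and 3. Taken alone, Rps2 was lower by a log2 fold change of -3.03 with LPS (SE 0.955, adjusted p = 0.0292 by edgeR). With its copies added the difference was -0.79 (SE 0.166, adjusted p = 0.00402 by edgeR).

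Rpl34, a large subunit protein, moved between the gene and Rpl34-ps1 in the same way, library by library. Its own part was 86.1% to 90.1% in Hdac3f/f. In Lyz2-Cre-Hdac3f/f it was 1.29%, 46.2% and 37.4% untreated and 86.3%, 1.56% and 45.9% with LPS, so that the libraries of a group covered nearly the whole range. With copies added the level was 257, 343 and 403 CPM in untreated Hdac3f/f and 257, 225 and 260 CPM in untreated Lyz2-Cre-Hdac3f/f, and the log2 fold change went from -2.10 (SE 1.04) to -0.44 (SE 0.172, adjusted p = 0.114 by edgeR). Rps3a1 kept 98.5% to 98.8% of its counts in all Hdac3f/f libraries and in Lyz2-Cre-Hdac3f/f replicate 1 of each treatment. In the other 4 Lyz2-Cre-Hdac3f/f libraries its part was 25.5% and 64.5% untreated and 65.6% and 63.8% with LPS, the rest going mainly to Rps3a2 and Rps3a3.

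Rps18, a small subunit head protein encoded on chromosome 17 like Rps28, kept most of its counts in every library. It had 8263, 9930 and 11347 counts in untreated Hdac3f/f and 6556, 3327 and 3742 in untreated Lyz2-Cre-Hdac3f/f. With LPS it had 5783, 7211 and 6663 counts in Hdac3f/f and 2741, 3001 and 3280 in Lyz2-Cre-Hdac3f/f. Replicate 1 of untreated Lyz2-Cre-Hdac3f/f, the library low in Lyz2, stood apart from the other 5, and its own part of the counts was 97.5%, as in Hdac3f/f, where the other 5 had 81.5% to 82.8%. With its copies added Rps18 remained called, at a log2 fold change of -1.002 (SE 0.221, adjusted p = 0.0132 by edgeR) untreated and -1.16 (SE 0.222, adjusted p = 0.00229 by edgeR) with LPS. Without that replicate the untreated log2 fold change of the gene alone was -1.51.

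**Figure D3:**
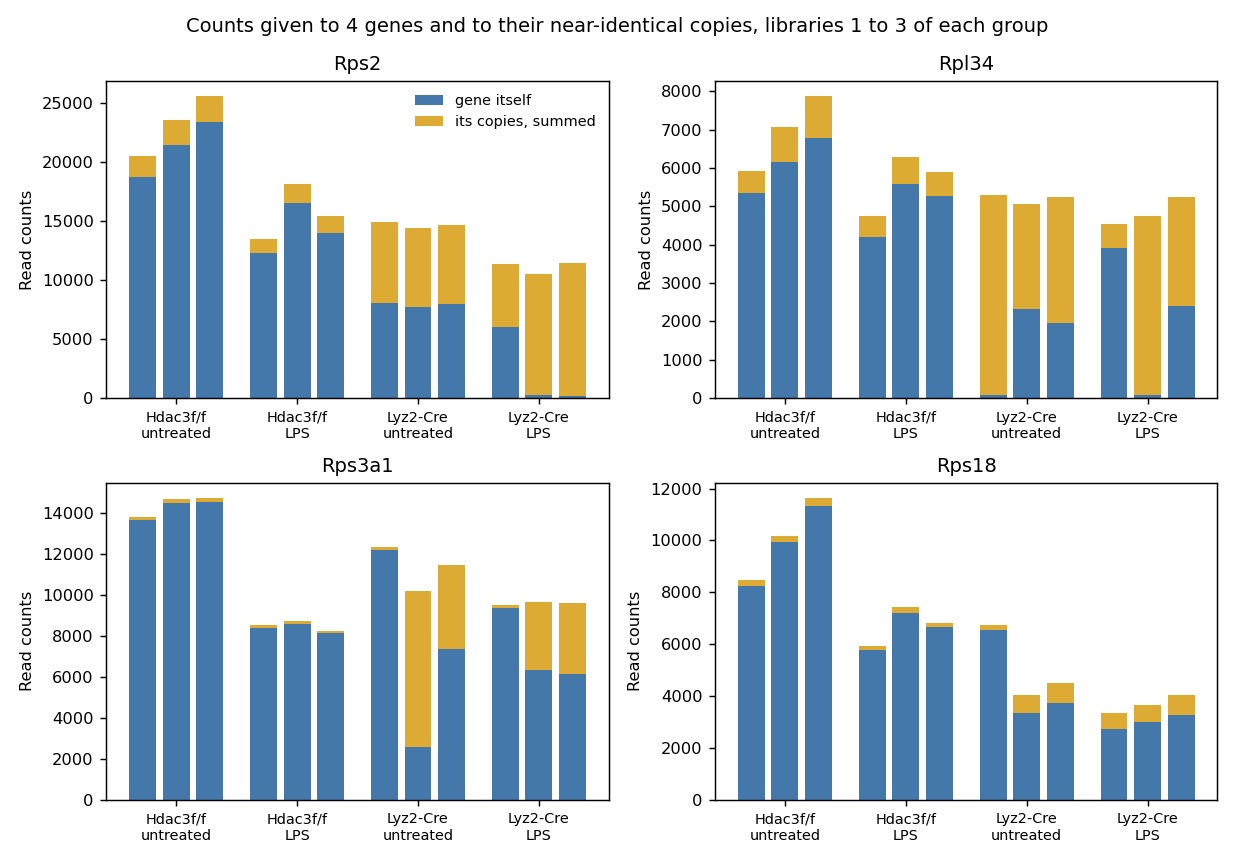
Read counts of Rps2, Rpl34, Rps3a1 and Rps18 (blue) and, stacked on them, the summed counts of their copies (yellow), in replicates 1 to 3 of each group from left to right, with Lyz2-Cre standing for Lyz2-Cre-Hdac3f/f. The yellow part is small in all Hdac3f/f libraries and takes up to nearly the whole bar of Rps2 and Rpl34 in some Lyz2-Cre-Hdac3f/f libraries.

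When the counts of all copies were added to their genes, the family's difference between genotypes was of the same size. In untreated cells 35 of 82 genes were called lower and 0 higher, with a median of -0.49, and with LPS 58 were lower and 0 higher, with a median of -0.50. Over all genes tested in that fit 947 were lower and 713 higher untreated, and 2425 lower and 2217 higher with LPS. The summed share with copies was 4.11% ± 0.543 in untreated Hdac3f/f and 2.998% ± 0.229 in untreated Lyz2-Cre-Hdac3f/f (SD, n = 3). The ratio of small to large subunit counts was 0.774 ± 0.00410 in untreated Hdac3f/f and 0.721 ± 0.0201 in untreated Lyz2-Cre-Hdac3f/f (SD, n = 3). Rps2, Rps3a1 and Rps18 are small subunit genes of high count that enter that ratio, and their copies gained counts in most Lyz2-Cre-Hdac3f/f libraries. The ratio with copies added was not computed, and the part of these genes in its difference was not tested.

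The genotype difference was larger for short genes of the family than for long ones. Of the 29 genes coding under 400 nt, 16 were called lower in untreated cells and the median was -0.62. Of the 38 coding 400 to 699 nt, 15 were called and the median was -0.50, and of the 15 coding 700 nt or more, 2 were called and the median was -0.37. Other genes showed the same order at smaller size: their medians were -0.14, -0.06 and 0.05 in the same classes. Calls among other genes were not counted by class, and over all genes 6.66% were called lower untreated. Across the 82 genes the Spearman correlation of the log2 fold change with coding length was 0.46 untreated and 0.41 with LPS, and over 12297 other genes 0.16 and 0.15. These are across genes, which share the same libraries and are not independent replicates.

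A measure taken within each library shows the same. It is the median log2 level, relative to a gene's mean over libraries, of short genes minus that of long genes, and was computed for other genes as well. In untreated Hdac3f/f it was -0.11, -0.03 and 0.13 for the family and -0.24, 0.01 and 0.19 for other genes, in the order of replicates 1 to 3. In untreated Lyz2-Cre-Hdac3f/f it was -0.29, -0.18 and -0.14 for the family and -0.19, -0.31 and -0.15 for other genes. The measure thus moved with genotype and also between replicates of Hdac3f/f, where the replicate lowest in it, replicate 1, was also the lowest in the family's sum. When an offset for coding length was fitted in each library, the median genotype difference was -0.41 untreated and -0.43 with LPS.

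**Figure D4:**
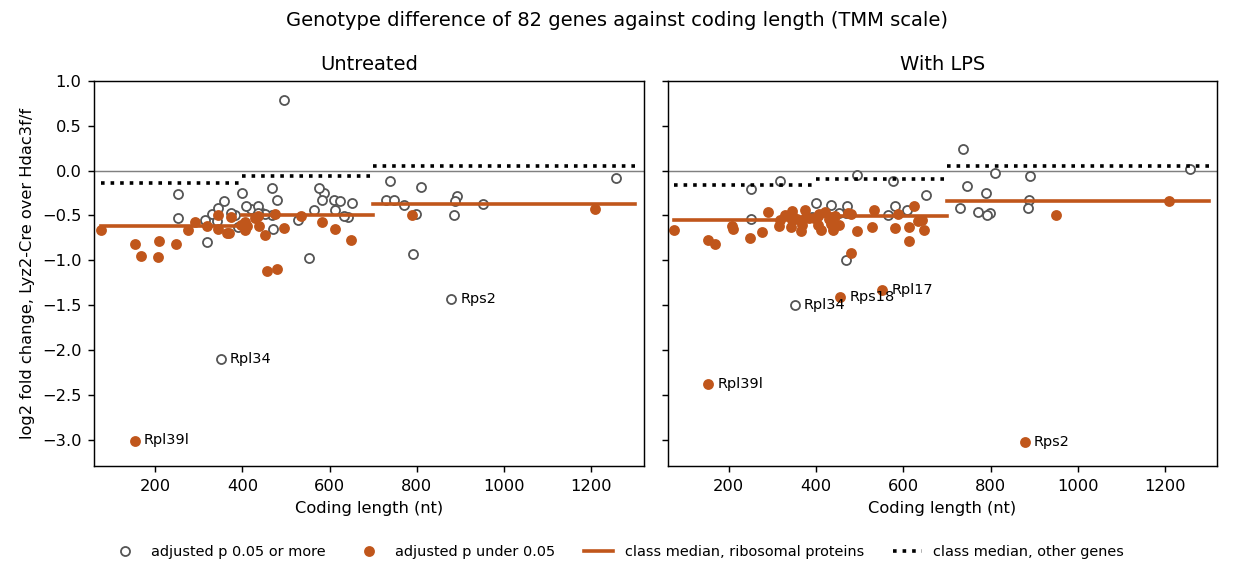
Log2 fold change of Lyz2-Cre-Hdac3f/f over Hdac3f/f against coding length in nucleotides for the 82 tested genes, untreated (left) and with LPS (right); filled points have an adjusted p under 0.05, orange bars are class medians of the family and dotted bars those of other genes. The orange bars rise from -0.62 for genes under 400 nt to -0.37 for genes of 700 nt or more on the left, and stay below the dotted bars in every class.

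The response to LPS was small and mixed in the family, where most other genes moved. In Hdac3f/f 7 of 82 genes were called higher and 2 lower, against 28.0% and 32.1% of all genes (60.1% in either direction), and in Lyz2-Cre-Hdac3f/f 6 were higher and 1 lower, against 25.2% and 27.7%. Medians were 0.17 and 0.16, against -0.08 for all genes in each genotype. Leaving out 1 library moved the first to between 0.04 (without LPS-treated Hdac3f/f replicate 2 or untreated Hdac3f/f replicate 1) and 0.32 (without untreated Hdac3f/f replicate 3), with 0.31 without LPS-treated Hdac3f/f replicate 1. It moved the second to between 0.08 (without untreated Lyz2-Cre-Hdac3f/f replicate 2) and 0.24 (without LPS-treated Lyz2-Cre-Hdac3f/f replicate 1), with 0.085 without LPS-treated replicate 3. On library totals the direction was the opposite. In Hdac3f/f 59 genes were lower and 0 higher, where 8239 and 2086 of all 14286 genes were. The family's median was -0.47, against -0.72 for all genes. In Lyz2-Cre-Hdac3f/f 22 were lower and 1 higher, where 6462 and 2114 of all genes were, with a median of -0.23 against -0.46. On either scale the family's median lay above that of all genes. The LPS change also went with coding length, with a Spearman correlation across the family of -0.39 in Hdac3f/f and -0.48 in Lyz2-Cre-Hdac3f/f. Over other genes it was -0.10 in each genotype. With the coding length offset the family's LPS median was 0.15, against 0.03 for all genes, in Hdac3f/f. In Lyz2-Cre-Hdac3f/f it was 0.10 against 0.015. Only 1 gene in Hdac3f/f had all LPS libraries above all untreated ones, against 28.3% of all genes, and 17 did in Lyz2-Cre-Hdac3f/f, against 30.9%.

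Rpl3, a large subunit protein that reaches the peptidyl transferase centre and has one of the longest coding sequences of the family, fell with LPS in each genotype on the TMM scale, on library totals and relative to the family. It was at 536, 624 and 633 CPM in Hdac3f/f without LPS and at 390.1, 411 and 412 CPM with it, a log2 fold change of -0.56 (SE 0.0968, adjusted p = 0.00023 by edgeR). In Lyz2-Cre-Hdac3f/f it was at 447, 433 and 453 CPM untreated and 325, 293 and 344 CPM with LPS, a log2 fold change of -0.47 (SE 0.0967, adjusted p = 0.00116 by edgeR). The treated and untreated libraries did not overlap in either genotype. Rpl5, which binds the 5S ribosomal RNA, was lower with LPS in Hdac3f/f by -0.24 (adjusted p = 0.0413 by edgeR), with a value of -0.03 in Lyz2-Cre-Hdac3f/f that was not called.

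Of the genes called higher with LPS, Rps12, a small subunit beak protein, and Rpl24 were called in each genotype on the TMM scale. Rps12 was at 140.1, 168 and 208 CPM in Hdac3f/f without LPS and at 208, 252 and 231 CPM with it, a log2 fold change of 0.42, and its value on library totals was -0.21. In Lyz2-Cre-Hdac3f/f it was at 109.5, 97.0 and 132 CPM untreated and 164, 154 and 160.4 CPM with LPS, a log2 fold change of 0.50 (adjusted p = 0.0121 by edgeR), and 0.11 on library totals. Rpl19, of the large subunit, was called higher in Hdac3f/f by 0.46, where library totals gave -0.17. Rps13, of the small subunit, was called higher in Lyz2-Cre-Hdac3f/f by 0.48 on the TMM scale and had a value of 0.09 on library totals. Rps20 and Rplp2 were called higher in Hdac3f/f by 0.42 and 0.40 on the TMM scale, with -0.22 and -0.24 on library totals, and Rps29 in Lyz2-Cre-Hdac3f/f by 0.46, with 0.07 on library totals. Among genes of low count, Rps10 and Rpl24 were called higher in Hdac3f/f (0.79 and 0.66), and Rpl24 and Rpl36al in Lyz2-Cre-Hdac3f/f (0.93 and 1.52). Rpl24 reached at most 7.40 CPM in any library. With their copies added, Rps10 and Rps12 were no longer called in Hdac3f/f (adjusted p = 0.120 and 0.0734 by edgeR), nor was Rpl5 among the lower genes (adjusted p = 0.0507 by edgeR). In Lyz2-Cre-Hdac3f/f Rpl36al and Rps29 were no longer called (adjusted p = 0.130 and 0.0694 by edgeR), while Rps12 still was, and Rpl24 was in each genotype. Rps27 was then called higher in Hdac3f/f, by 0.47 (adjusted p = 0.0330 by edgeR).

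These counts too rested on single libraries. In Hdac3f/f the count of genes higher with LPS went from 7 to 1, 2 and 15 without untreated replicates 1, 2 and 3, and to 19, 2 and 0 without LPS-treated replicates 1, 2 and 3. It was 4 without Lyz2-Cre-Hdac3f/f untreated replicate 1, untreated replicate 3 or LPS-treated replicate 2, which enter through the shared spread. Over all genes 4047, 3638 and 3873 were higher without untreated Hdac3f/f replicates 1, 2 and 3. Without LPS-treated Hdac3f/f replicates 1, 2 and 3 it was 4011, 3840 and 3721, against 3993 with all libraries. The fits with 4 had 4010, 3969 and 3966. The 2 genes lower in Hdac3f/f became 1 without any 1 of 8 libraries: untreated Hdac3f/f replicates 2 and 3, LPS-treated Hdac3f/f replicate 3, and all Lyz2-Cre-Hdac3f/f libraries other than untreated replicate 2. Over all genes between 4179 and 4647 were lower in these fits, against 4591 with all libraries. In Lyz2-Cre-Hdac3f/f the 6 genes higher with LPS became 2 without untreated replicate 2, and 4 without untreated replicate 1, the library low in Lyz2. Over all genes 3203 and 3417 were higher in these fits, against 3606 with all libraries. The 1 lower gene became 2 without LPS-treated Hdac3f/f replicate 2 or LPS-treated Lyz2-Cre-Hdac3f/f replicate 1, where 3949 and 3350 of all genes were lower, against 3958. For the interaction, 0 genes of the family were called in either direction without the library low in Lyz2, where 184 of all genes were higher and 538 lower.

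**Figure D5:**
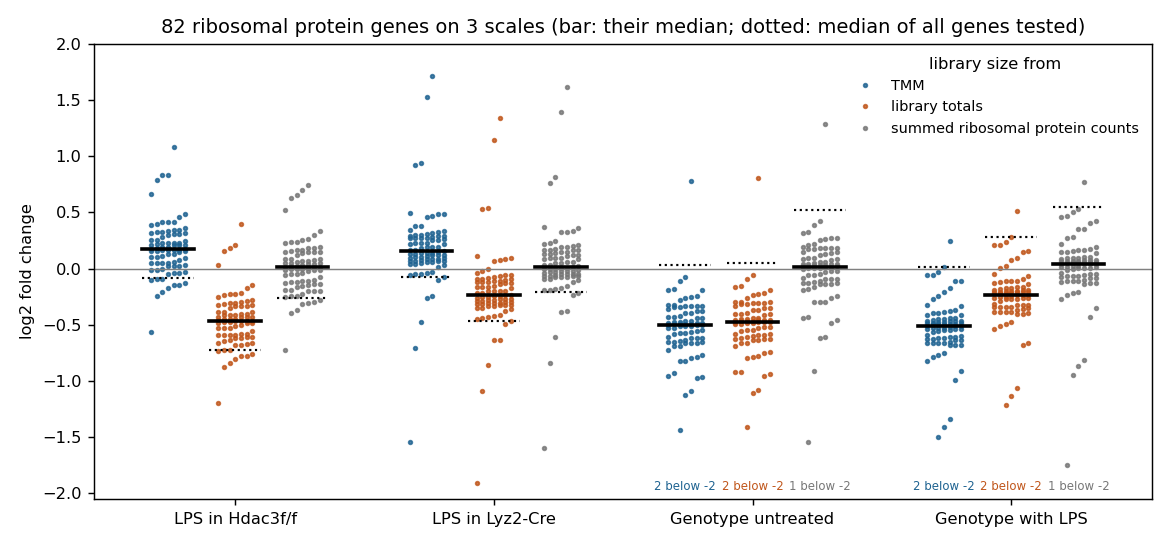
Log2 fold changes of the 82 genes (points) in 4 comparisons with library size taken from TMM, from library totals, or from the summed counts of the family; solid bars are their medians, dotted bars the medians of 14286 genes, Lyz2-Cre stands for Lyz2-Cre-Hdac3f/f, and values below -2 are counted at the foot. The LPS medians change sign between TMM (0.17 and 0.16) and library totals (-0.47 and -0.23), while both genotype medians are negative on both scales.

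To see which genes departed from the family, library size was set to the family's own summed counts, which puts its median near 0 in every comparison by construction. On that scale, with LPS in Hdac3f/f, 4 genes were lower (Rpl3, Rpl5, Rpl10a and Rps4x) and 5 higher, among them Rpl19, Rps20, Rpl27 and Rplp2, where 52.0% of all genes were called. In Lyz2-Cre-Hdac3f/f, 2 were lower (Rpl3 and Rpl10a) and 4 higher (Rpl36al, Rpl24, Rps12 and Rps29), where 42.5% of all genes were called. Rpl3 stood at -0.72 (SE 0.126) and -0.61 (SE 0.126) relative to the family, and Rpl10a, of the large subunit stalk at the exit side, at -0.37 (SE 0.0836) and -0.24 (SE 0.0837). The names given here beyond the largest changes were chosen after their values were seen.

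On the same scale 5 genes were relatively higher and 7 relatively lower in untreated Lyz2-Cre-Hdac3f/f, where 32.8% of all genes were called. The lower genes were Rpl39l, Rps18, Rps28, Rps29, Rpl39, Rps21 and Rpl10a, and the higher ones Rps10, Rpl7, Rpl9, Rps24 and Rpl19. With LPS 10 were relatively higher and 2 relatively lower, Rps18 among them, where 45.7% of all genes were called. Rpl7l1, a paralog of Rpl7 known from ribosome assembly, was the highest of these, at 0.77 (SE 0.156, adjusted p = 0.00566 by edgeR). In CPM it was at 88.7, 82.9 and 82.3 in Hdac3f/f and at 101, 100.5 and 99.3 in Lyz2-Cre-Hdac3f/f with LPS, with no overlap, but on the TMM scale its genotype difference of 0.25 was not called (adjusted p = 0.0719 by edgeR). Rpl7l1 was called higher with LPS in Lyz2-Cre-Hdac3f/f by 0.48 on the TMM scale (0.10 on library totals), with a value of 0.13 in Hdac3f/f that was not called (-0.50 on library totals).

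The paralogs with a parent gene differed in level and, in part, in their values. Rpl22l1 was lower in Lyz2-Cre-Hdac3f/f by -0.69 untreated (adjusted p = 0.0330 by edgeR) and -0.68 with LPS (adjusted p = 0.0179 by edgeR). Its parent Rpl22 had values of -0.49, not called, and -0.53, called. Rpl36a, the parent of Rpl36al, was lower by -0.62 untreated and -0.55 with LPS, while Rpl36al was below 1.3 CPM in every library. Rps27l, a paralog of Rps27 induced by p53, had genotype values of -0.26 and -0.21, neither called (0.08 with LPS on library totals), and Rps27 of -0.53 and -0.54, neither called. With its copies added Rps27 was called lower with LPS, at -0.68 (adjusted p = 0.0117 by edgeR). Rpl10, a large subunit protein that joins late in assembly, was at 614, 790.2 and 899 CPM in untreated Hdac3f/f and at 572, 494 and 549 CPM in untreated Lyz2-Cre-Hdac3f/f. Its groups did not overlap, with a log2 fold change of -0.51 that missed the threshold untreated (adjusted p = 0.0567 by edgeR) and one of -0.55 with LPS that passed it (adjusted p = 0.0211 by edgeR). Rpl21, a large subunit protein of low count here, was called lower in both states by -1.09 and -0.92, and with its copies added by -0.38 and -0.43. Rpl17, of the large subunit exit tunnel, went from -1.34 with LPS to -0.43 with its copies added and was still called.

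Other lists of the translation machinery are given for the genotype comparison by their counts and medians, and their difference from the family was not tested. Among 77 tested mitochondrial ribosomal proteins, 0 were higher and 1 lower in untreated Lyz2-Cre-Hdac3f/f, with a median of -0.06. With LPS 4 of them were higher and 5 lower on the TMM scale. On library totals 28 were higher and 0 lower with LPS, where 4462 and 1329 of all 14286 genes were. Of 35 ribosome assembly factors 1 was higher and 0 lower untreated, and with LPS 15 were higher and 0 lower, with a median of 0.40. Of 22 initiation factors 0 were higher and 1 lower untreated, and 8 higher and 0 lower with LPS. Of 18 elongation factors and other genes with a TOP mRNA 0 were higher and 2 lower untreated, and 2 higher and 3 lower with LPS, with medians of -0.26 and -0.09, the latter 0.18 on library totals. Of 14 genes of RNA polymerase I, which makes ribosomal RNA, and its factors, 0 were called untreated, and with LPS 5 were higher and 1 lower. Of 15 genes of mTORC1 and TOP control 0 were higher and 1 lower untreated, and 1 higher and 2 lower with LPS. The 3 tested ribosomal proteins that the name rule misses had a median of -0.47 untreated, with none called, and of -0.58 with LPS, with 2 called lower.

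With LPS 60.1% of all genes were called in Hdac3f/f and 52.9% in Lyz2-Cre-Hdac3f/f, and the lists are read against these shares. In Hdac3f/f 14 of 77 mitochondrial ribosomal proteins were higher and 23 lower, and 6 of 35 assembly factors were higher and 13 lower. Of 22 initiation factors 15 were higher and 3 lower in Hdac3f/f on the TMM scale, which turned to 3 higher and 13 lower on library totals. In Lyz2-Cre-Hdac3f/f 15 were higher and 0 lower, and 9 higher and 3 lower on library totals. Larp1, the TOP-binding repressor, rose by 2.14 (SE 0.0864) in Hdac3f/f and 1.62 (SE 0.0850) in Lyz2-Cre-Hdac3f/f, and was higher on library totals too. Sesn1, an inhibitor upstream of mTORC1, had log2 fold changes of -5.20 (SE 0.238) and -4.17 (SE 0.226), both called. Both LPS contrasts and both genotype contrasts reuse the same 4 groups, so these values are set side by side and not counted as separate support.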

How the data were processed

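Per the submitters' processing notes, TopHat2 and mm10 were used, with no version or counting tool. The deposited counts are whole reads per gene, per the file headers, and the deposited FPKM values are normalized for length and depth by the authors. Their deposited log2 ratios and p-values come from a test not given in the sources used here, and scaled group means (signal) deposited by the authors were not used. The genes and lists were chosen with earlier results of these data known. Genes were filtered with filterByExpr and fitted in edgeR 4.0.16 (R 4.3.3), TMM-scaled, by 1 quasi-likelihood model over 4 groups, all 12 libraries and 14286 genes, with Benjamini-Hochberg adjustment over all of them. SE is the size of the log2 fold change divided by the root of F. Between 16553432 and 18706990 counts per library limit low genes. Named genes were the 5 largest called rises and falls per contrast, the 5 of highest FPKM, stalk proteins, Rpsa, paralogs with parents, genes failing the filter, and the 2 largest rises and falls of each pathway list with LPS, of which few are printed. Some single-gene results are not reported here. Coding lengths and copies come from GENCODE M21 (blastn 2.17.0), starts from RefSeq. The test was tested on simulated data with known changes: in the comparison of untreated genotypes over 14286 genes, 2 unchanged genes were called, and recovery was 7.46%, 56.7% and 78.8% for log2 changes of 0.5, 1 and 2. Marker lists for neutrophils, lymphocytes, dendritic, erythroid, mast and stromal cells were summed. Alternatives were DESeq2 1.42.0 (Wald test and size factors), library totals, the family's own sum, no filter, added pseudogenes, length offsets, a replicate block and omission of each library.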

Additional observations from a re-analysis of the deposited data

Results flagged for a closer look

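None of the 82 tested ribosomal protein genes was called for a difference of the LPS response between genotypes by edgeR (2 had an unadjusted p under 0.05, and DESeq2 called 0), where 8.12% of all genes were called. Of 30 genes named from the related lists 3 were called, by the interaction term of the edgeR model (the response with Cre less the response without it). Wdr12, an assembly factor of the large subunit, fell by 1.97 (log2) in Hdac3f/f and 1.08 in Lyz2-Cre-Hdac3f/f, an interaction of 0.888 (adjusted p = 0.0396 by edgeR). Nap1l1, a histone chaperone with a TOP mRNA, fell by 1.35 and 0.71, an interaction of 0.643 (adjusted p = 0.0491 by edgeR). Larp1 rose by 2.14 and 1.62, an interaction of -0.52 (adjusted p = 0.0187 by edgeR). Groups of 3 libraries are too small for a test of outlying libraries.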

How the results depend on the processing

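Counts of the 82 genes called are given as higher/lower, and medians also turned in sign: on library totals those of LPS were -0.466 in Hdac3f/f and -0.234 in Lyz2-Cre-Hdac3f/f, and on the family's own scale those of genotype were 0.019 and 0.042. LPS in Hdac3f/f gave 7/2, and 0/59 on library totals, 12/1 by DESeq2's Wald test, 15/1 with deposited gene length offsets and 16/1 with coding length offsets. Lower calls there were 1 with DESeq2 size factors, without the filter or with copies added, and 4 on the family's own scale. Over all genes tested this contrast gave 3993/4591, and 4282/4266 by the Wald test, 4617/4125 with gene length offsets and 4175/3789 with coding length offsets. Lower over all genes were 4286 with DESeq2 size factors, 4747 without the filter, 4592 with copies added and 4595 on the family's scale. LPS in Lyz2-Cre-Hdac3f/f gave 6/1, and 1/22 on library totals, 2 lower on the family's scale, 3 lower without the filter and 13 higher with gene length offsets. Over all genes it gave 3606/3958, and 3686 lower on the family's scale, 4008 lower without the filter and 4185 higher with gene length offsets. Genotype untreated gave 0/33, and 5/7 on the family's scale, 60 lower without the filter and 1 higher with either length offset. Over all genes it gave 733/952, and 4390/300 on the family's scale and 1463 lower without the filter. With gene and coding length offsets 823 and 780 of all genes were higher. Genotype with LPS gave 0/53, and 3/15 on library totals, 10/2 on the family's scale and 1 higher with coding length offsets. Over all genes it gave 2243/2413, and 5892/631 on the family's scale and 2028 higher with coding length offsets. The interaction gave 2 higher on library totals. Over all 14286 genes library totals gave 2086/8239 and 2114/6462 for LPS, 627/1012 and 4462/1329 for genotype, and 1135/449 for the interaction. Copies found by sequence and coding length offsets were chosen after seeing the data.

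Correlations showed no clear pairing by replicate number: 5 of 18 same-numbered pairs correlated over 0.1 (range -0.404 to 0.217), and 4 of 12 libraries correlated best with their own number. Most of these pairs join different genotypes. Untreated and LPS-treated libraries of 1 genotype and number correlated at 0.197, 0.096 and 0.003 in Hdac3f/f and 0.134, 0.069 and 0.011 in Lyz2-Cre-Hdac3f/f. Pairs of differing number ran from -0.357 to 0.422, and a shared origin was not tested. With a replicate block, LPS in Hdac3f/f gave 14/1, and no other count of calls moved by over 1.5 times. Over all genes that fit gave 4038/4679 for LPS in Hdac3f/f. Leaving out 1 library gave 0 to 19 higher and 1 to 3 lower for LPS in Hdac3f/f, 2 to 9 and 1 to 2 for LPS in Lyz2-Cre-Hdac3f/f, 0 to 1 and 3 to 59 for genotype untreated, 0 higher and 9 to 64 lower for genotype with LPS, and 0 higher and 0 to 1 lower for the interaction. Over all genes the fit with 3 lower untreated had 494 lower, and those with 9 lower with LPS had 1718 and 1663. For LPS in Hdac3f/f the fits with 0 and 19 higher had 3721 and 4011 higher over all genes. For LPS in Lyz2-Cre-Hdac3f/f those with 2 and 9 higher had 3203 and 3779.

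Against TMM sizes the summed share was 3.211% and 3.597% (untreated, LPS) in Hdac3f/f and 2.237% and 2.456% in Lyz2-Cre-Hdac3f/f. Without the 5 highest genes it was 3.239%, 2.298%, 2.292% and 1.903%, and with copies 2.998% and 2.521% in Lyz2-Cre-Hdac3f/f, in the same order. On library totals the sign of LPS in Hdac3f/f turned for Rpl19 (-0.173), Rps12 (-0.214), Rpl10 (-0.531), Rpl22l1 (-0.61), Rpl36a (-0.485), Rpl39 (-0.385), Rpl7l1 (-0.504), Rplp0 (-0.326), Rplp2 (-0.239), Rps15 (-0.507) and Rpsa (-0.592). It also turned for LPS in Lyz2-Cre-Hdac3f/f for Rpl10 (-0.316), Rpl7 (-0.334), Rps15 (-0.373) and Rps27l (-0.352), and for genotype with LPS for Rpl7 (0.24). On the family's scale, genotype with LPS turned for Rpl10 (0.003), Rpl22 (0.025), Rpl3 (0.192), Rpl36a (0.002), Rpl7 (0.502), Rplp0 (0.057), Rplp2 (0.048), Rps15 (0.043) and Rps27l (0.354), and genotype untreated for Rpl3 (0.079) and Rpl7 (0.325). These turns follow from the scale itself, which moves all genes together. Of single-gene values, 1753 kept their side of the threshold, and uncalled values among these could change sign. A further 164 lost and 80 gained the call with the sign kept, and 27 changed sign with a call in either fit.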
